A study of Homo sapiens with 12 samples.

Results

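The genes described here are 32 members of the cholesterol and fatty acid synthesis programme of human cells, chosen by symbol from their known roles, with earlier results of these data known. They are 7 mevalonate enzymes, 3 enzymes from squalene to lanosterol, 8 enzymes from lanosterol to cholesterol, 5 SREBP control genes, 4 enzymes of fatty acid synthesis, 3 fatty acid desaturases, and STARD4 and LPIN1, which handle lipids. All 32 had a line among the 19293 genes of the deposited count table, and all 32 passed the filter on low counts that left 12160 genes for testing. The study sequenced RNA from HT1080 cells, an established human fibrosarcoma line. The 12 libraries form 4 groups of 3, all harvested at 24 h: untreated cells, cells given 10 ng/ml of IFNγ (interferon gamma, a cytokine that signals through JAK and STAT proteins), cells given 20 Gy of ionising radiation, and cells given both agents. All 4 groups are this 1 line, at passages 15 to 20 per the labels, and each agent was given at 1 dose with 1 harvest time.

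Cells make cholesterol from acetyl-CoA through mevalonate, farnesyl diphosphate, squalene and lanosterol, and they make fatty acids from the same acetyl-CoA through malonyl-CoA. SREBP transcription factors drive genes of both pathways: SCAP escorts them from the endoplasmic reticulum to the Golgi, where they are cleaved, and INSIG proteins hold SCAP back when sterols are plentiful. Desaturases then set the share of unsaturated fatty acids in membrane lipids, which bears on how easily those lipids are peroxidised.

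Total counts per library ran from 9675126 to 11010656, and the 32 genes held 0.466% to 0.523% of them. Levels are given as CPM, a gene's counts relative to the library total scaled by the trimmed mean of M-values (TMM), with SD over 3 libraries. Differences are log2 fold changes ± SE from edgeR's quasi-likelihood test, with p-values adjusted by Benjamini-Hochberg over all 12160 genes, and "called" means an adjusted p below 0.05. Nothing in the labels ties the replicates to separate cultures, so these p-values measure the spread between libraries, which may be technical. In RNA from a whole culture, fewer cells of a kind and less RNA per cell cannot be told apart. The treatments left known marks: mean IRF1 was 6.90 CPM in untreated and 194 CPM in IFNγ-treated cells, and mean CDKN1A was 112 CPM in untreated and 612 CPM in irradiated cells. Of 8 mesenchymal markers 6 exceeded 10 CPM in every library and THY1 stayed at or under 0.184 CPM, while 6 of 7 epithelial and 5 of 8 immune and endothelial markers stayed at or under 1 CPM and NCAM1, of the latter list, stood at 42.2 to 67.6 CPM. Irradiated replicate 2 held 59 counts of the interferon-induced gene GBP5, against 10 and 3 in the other irradiated libraries, and without it radiation called 19 of the 32 genes. Calls were also lost without irradiated replicate 1 (EBP, SC5D and SREBF2) or replicate 3 (NSDHL, EBP and SC5D), so such losses were not particular to replicate 2.

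The promoters of 4 of the genes are shown: SREBF2, which encodes the SREBP form most tied to cholesterol synthesis and moved little, because its window holds the sterol regulatory element core, INSIG1 and SCD because they fell with radiation, and STARD4 because it rose after every treatment. Each sequence runs from 250 bases before to 50 bases after the annotated transcription start, read 5′ to 3′ on the gene's strand, and comes from RefSeq on GRCh38.p14, a later build than the hg19 generation named for the deposited counts. Capitals mark matches, on either strand, to 3 motifs: the sterol regulatory element core TCACNCCAC, the CCAAT box (CCAAT, or ATTGG where it lies on the other strand) and the E-box CACGTG.
SREBF2 (chr22:41832855-41833154, + strand): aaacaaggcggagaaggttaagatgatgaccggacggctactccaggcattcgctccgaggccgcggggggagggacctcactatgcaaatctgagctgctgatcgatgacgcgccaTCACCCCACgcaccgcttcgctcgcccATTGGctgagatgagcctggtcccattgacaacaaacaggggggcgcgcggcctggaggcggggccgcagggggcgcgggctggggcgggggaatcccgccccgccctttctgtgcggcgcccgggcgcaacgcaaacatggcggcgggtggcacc
INSIG1 (chr7:155297628-155297927, + strand): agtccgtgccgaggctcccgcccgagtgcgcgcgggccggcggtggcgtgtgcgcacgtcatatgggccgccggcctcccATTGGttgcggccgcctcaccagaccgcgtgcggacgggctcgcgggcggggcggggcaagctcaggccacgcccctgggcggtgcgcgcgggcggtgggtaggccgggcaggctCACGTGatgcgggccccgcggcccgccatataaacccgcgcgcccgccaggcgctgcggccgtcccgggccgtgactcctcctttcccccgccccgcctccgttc
SCD (chr10:100346983-100347282, + strand): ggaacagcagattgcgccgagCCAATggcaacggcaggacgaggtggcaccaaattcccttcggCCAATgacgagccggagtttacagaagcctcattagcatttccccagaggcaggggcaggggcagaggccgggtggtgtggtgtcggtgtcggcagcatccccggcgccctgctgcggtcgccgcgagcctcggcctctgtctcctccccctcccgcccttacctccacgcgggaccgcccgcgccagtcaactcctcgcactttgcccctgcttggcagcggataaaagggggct
STARD4 (chr5:111512486-111512785, - strand): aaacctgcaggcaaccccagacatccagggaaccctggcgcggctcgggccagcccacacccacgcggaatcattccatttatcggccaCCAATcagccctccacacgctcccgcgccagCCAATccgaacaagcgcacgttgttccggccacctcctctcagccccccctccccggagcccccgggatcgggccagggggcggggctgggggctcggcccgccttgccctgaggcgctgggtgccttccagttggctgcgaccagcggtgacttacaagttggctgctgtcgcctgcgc

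SREBF2 held the sterol regulatory element core 133 bases before its start and a CCAAT box 106 bases before it. INSIG1 held a CCAAT box 170 bases and an E-box 55 bases before its start, SCD held CCAAT boxes at 229 and 186 bases, and STARD4 at 161 and 130 bases. The RefSeq table gave 40 such windows for 28 of the 32 genes. The sterol regulatory element core, in this strict spelling, lay in 1 of the 40 windows (2.5%), against 1.13% of all 35116 windows. CCAAT boxes lay in 24 (60%) against 34.6%, and E-boxes in 5 (12.5%) against 7.26%. Windows of the same gene can overlap, as for SC5D, so a site can count more than once. The CCAAT windows belong to 20 genes and the E-box windows to 4. These are matches of letters in a window and not shown binding sites, and a window without a match says only that these letters are not in it.

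Radiation lowered the control genes SREBF1, INSIG1, INSIG2 and SREBF2, the fatty acid genes SCD, ELOVL6 and FASN, and the sterol enzymes CYP51A1, SQLE, EBP, HMGCS1 and DHCR7, together with LPIN1. In the same cells it raised the sterol enzymes MVD, IDI1, HSD17B7, SC5D and NSDHL, the desaturases FADS1 and FADS2, and STARD4. Compared with untreated cells, 21 of the 32 genes were called (65.6%), against 56.1% of all genes tested. The 13 lower genes are 40.6% of the set, against 28.2% of all genes, and the 8 higher genes are 25% of it, against 27.9%. The median log2 fold change of the 32 was -0.05 and their median absolute change 0.19, against 0.0061 and 0.23 for all genes. By edgeR, DESeq2 and limma-voom 0 genes of the set were both called and changed at least 1.5-fold, while 13.7% of all genes were by edgeR. At an unadjusted p under 0.05 by edgeR there were 22 genes of the set (68.8%, against 60.5% of all genes). Summed CPM of the replication genes MCM2 to MCM7 was 507 to 526 in irradiated and 1327 to 1390 in untreated libraries, and mitochondrial transcripts made up 4.45% ± 0.0095 against 3.58% ± 0.0473 of counts (SD, n = 3). Their part in the lipid gene results was not tested. NSDHL was not called without untreated replicate 2 (0.12), irradiated replicate 2 (0.14) or irradiated replicate 3 (0.12), nor with DESeq2 or every gene of at least 1 count tested. EBP was not called without untreated replicate 1 (-0.14), irradiated replicate 1 (-0.16) or irradiated replicate 3 (-0.18), nor with DESeq2. SC5D was not called without untreated replicate 1 (0.14), irradiated replicate 1 (0.15) or irradiated replicate 3 (0.17). SREBF2 was not called without untreated replicate 1 (-0.06), untreated replicate 3 (-0.10), irradiated replicate 1 (-0.09) or irradiated replicate 2 (-0.06), nor with scaling on library totals, RLE size factors or DESeq2. Scaled on library totals instead of TMM, 10 genes were higher and 12 lower.

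**Figure D1:**
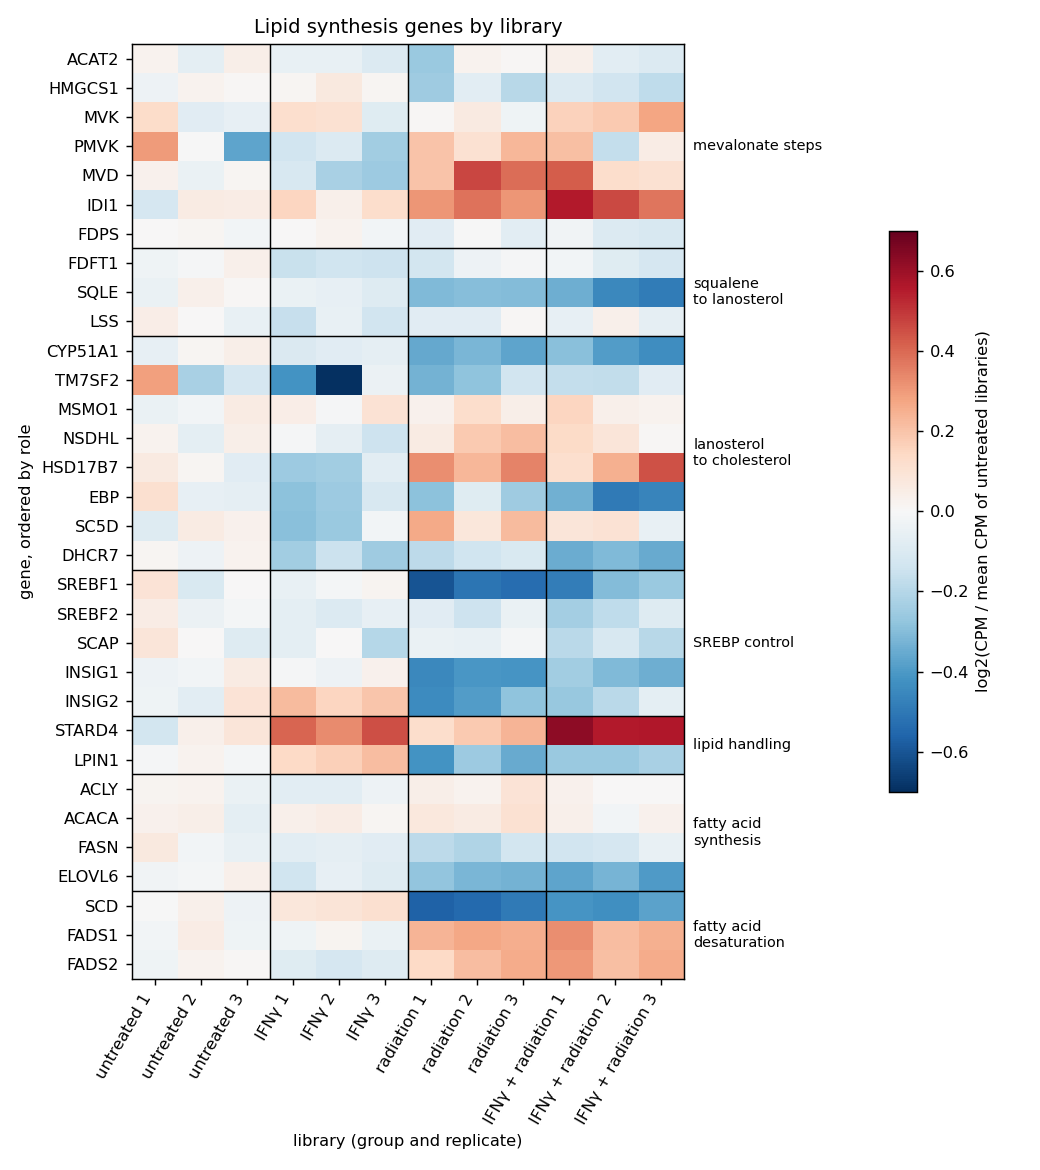
Level of each of the 32 genes in each of the 12 libraries, as log2 of its CPM over the mean CPM of the 3 untreated libraries; red is higher and blue lower, and horizontal lines separate the roles. The SCD, INSIG1 and SREBF1 rows are blue in all 6 irradiated libraries, and the STARD4 row is red in all 9 treated libraries.

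IFNγ alone raised STARD4, INSIG2, LPIN1 and SCD and lowered the sterol enzymes EBP, DHCR7, SC5D and FDFT1. These 8 genes are 25% of the set, a share near the 29.1% of all genes tested, with 4 higher (12.5% against 15%) and 4 lower (12.5% against 14.1%). The median log2 fold change was -0.07, against -0.0052 for all genes. Of the 32, 0 were called at 1.5-fold or more by any of the 3 tools, against 6.31% of all genes by edgeR. By edgeR 14 had an unadjusted p under 0.05 (43.8%, against 38.3% of all genes). The scaling mattered here, since library totals shift all genes by a median of -0.06 on the log2 scale: 51.6% of all called genes were higher with TMM and 31.1% on library totals, and the set then had 2 higher (STARD4 and LPIN1) and 14 lower genes. Leaving out IFNγ-treated replicate 1 left 5 called genes, and DESeq2 called 5. EBP was not called without untreated replicate 1 (-0.16), IFNγ replicate 1 (-0.20) or IFNγ replicate 2 (-0.20), nor with DESeq2. SC5D was not called without untreated replicate 2 (-0.15), untreated replicate 3 (-0.17), IFNγ replicate 1 (-0.15) or IFNγ replicate 2 (-0.15), nor with DESeq2, every gene of at least 1 count tested or the compared groups alone in the fit. INSIG2 was not called without untreated replicate 1 (0.18), untreated replicate 2 (0.16), IFNγ replicate 1 (0.16) or IFNγ replicate 3 (0.19), nor with scaling on library totals or DESeq2. SCD was not called without untreated replicate 3 (0.08), nor with scaling on library totals.

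Cells given both agents had STARD4, IDI1, HSD17B7, FADS1, FADS2, MVD and MVK above untreated cells. EBP, SQLE, SCD, CYP51A1, ELOVL6, SREBF1, DHCR7, INSIG1, LPIN1, INSIG2, SREBF2, SCAP, HMGCS1 and FASN lay below. These 21 genes are 65.6% of the set, against 62.1% of all genes tested, with 7 higher (21.9% against 30.9%) and 14 lower (43.8% against 31.2%). The median log2 fold change was -0.08, against -0.0014 for all genes. Of the set 0 were called at 1.5-fold or more by edgeR and by limma-voom and 1 by DESeq2, against 17.4% of all genes by edgeR. In edgeR's fit STARD4 lay just under this cut, 49.7% above untreated cells. By edgeR 21 of the set had an unadjusted p under 0.05 (65.6%, against 65.2% of all genes). On library totals 7 genes were higher and 16 lower. MVK was not called without untreated replicate 2 (0.17), untreated replicate 3 (0.18) or combination replicate 3 (0.17), nor with DESeq2. MVD was not called without untreated replicate 2 (0.20) or combination replicate 1 (0.11), nor with DESeq2. HSD17B7 was not called without untreated replicate 3 (0.24) or combination replicate 3 (0.18). SCAP was not called without untreated replicate 1 (-0.12). INSIG2 was not called without untreated replicate 3 (-0.12), combination replicate 1 (-0.13) or combination replicate 2 (-0.16), nor with DESeq2, every gene of at least 1 count tested or the compared groups alone in the fit. FASN was not called without untreated replicate 1 (-0.07).

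**Figure D2:**
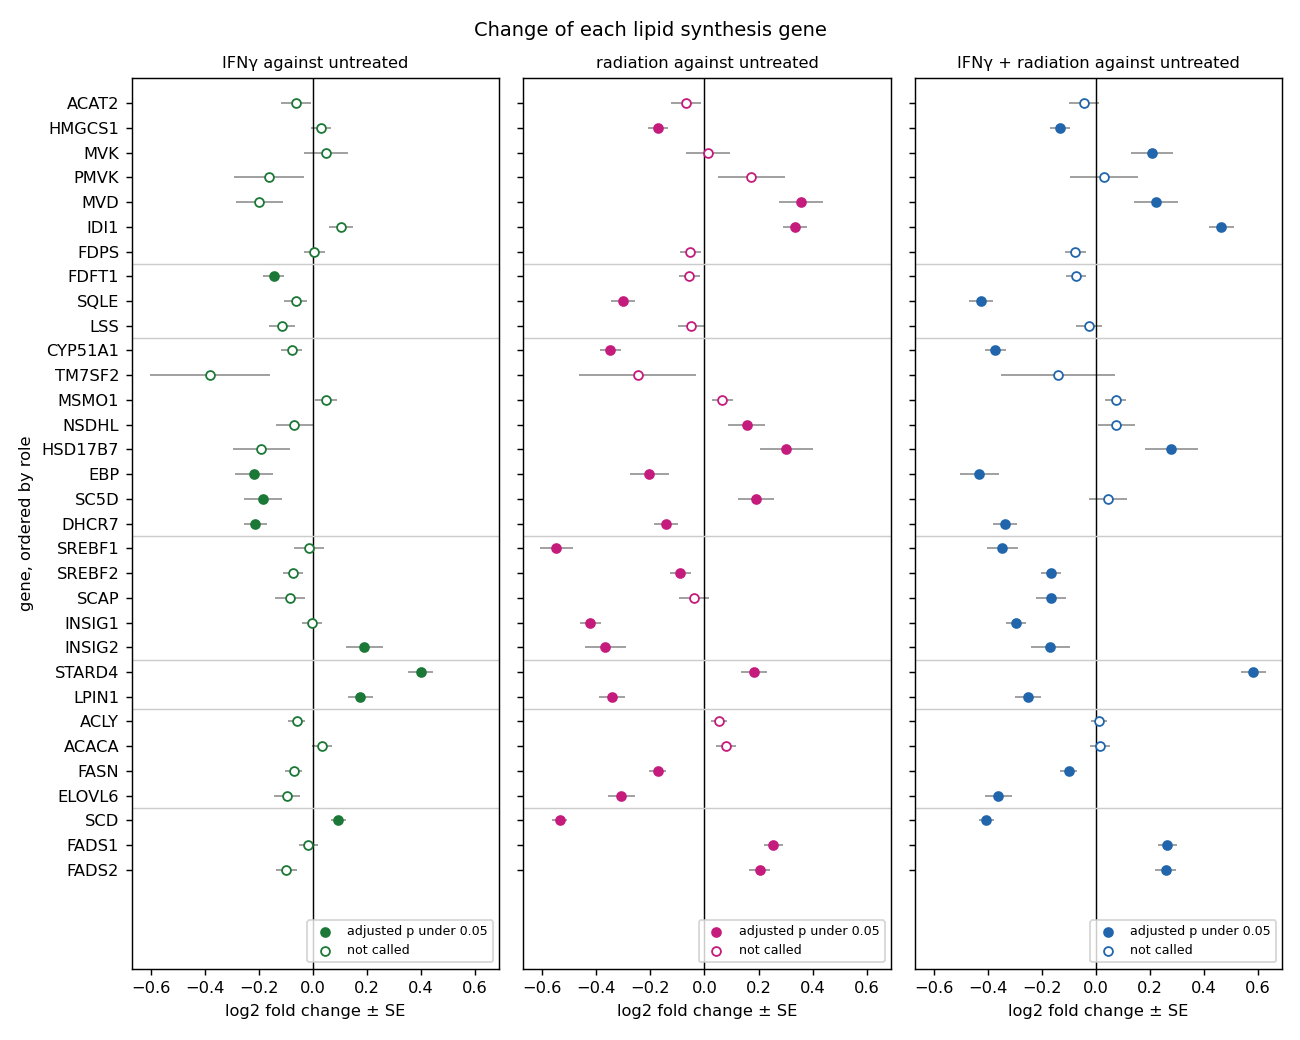
Log2 fold change against untreated cells of each of the 32 genes, with bars of ± 1 SE, for IFNγ, radiation and both; filled points passed an adjusted p of 0.05 and open points did not. Radiation and the combination each have 21 filled points on both sides of 0, and IFNγ alone has 8.

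Of the 5 control genes, 4 fell with radiation and 5 with both agents, while IFNγ alone raised INSIG2 only; of all genes 28.2% were lower with radiation, 31.2% lower with both and 15% higher with IFNγ. SREBF1 encodes the SREBP form most tied to fatty acid synthesis. It stood at 67.6, 58.8 and 63.5 CPM in the untreated libraries, 61.1, 62.7 and 64.1 with IFNγ, 41.7, 44.4 and 43.8 after radiation and 45.2, 51.3 and 52.8 with both. Both irradiated groups lay below every unirradiated library, and the combination libraries all lay above those given radiation alone. The fall with radiation was 31.6% (log2 -0.55 ± 0.0605, edgeR's adjusted p = 1.75e-11), and with both agents log2 -0.35 ± 0.0583 (adjusted p = 8.26e-07). SREBF2 moved less: its level was 221 ± 7.07 CPM in untreated, 210.4 ± 2.95 with IFNγ, 208 ± 7.14 with radiation and 197 ± 10.1 with both (mean ± SD, n = 3). Its log2 changes were -0.09 ± 0.0374 with radiation (adjusted p = 0.0384) and -0.17 ± 0.0374 with both (adjusted p = 0.000109). SCAP, the escort of both forms, was called in the combination only, at log2 -0.17 ± 0.0551 (edgeR's adjusted p = 0.00748), and stood at -0.04 ± 0.0548 with radiation. Whether the SCAP effect differs between these groups is given by the comparison of both agents with radiation, at -0.13 ± 0.0556 (adjusted p = 0.0827).

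INSIG1 and INSIG2 encode the proteins that retain SCAP, and INSIG1 is itself an SREBP target. INSIG1 read 178, 180.2 and 189.9 CPM without treatment, 182, 178 and 187 with IFNγ, 134, 138 and 137 with radiation and 155, 148 and 145 with both. The 3 groups other than IFNγ did not overlap one another, while IFNγ and untreated libraries did. Its level fell by 25.4% with radiation (log2 -0.42 ± 0.0389, edgeR's adjusted p = 4.86e-14) and was -0.0032 ± 0.0374 with IFNγ, with a 95% interval from -0.08 to 0.07. INSIG2 read 30.2, 29.3 and 32.99 CPM without treatment, 35.9, 34.3 and 35.2 with IFNγ, 22.7, 23.5 and 25.4 with radiation and 25.6, 27.02 and 29.4 with both. IFNγ-treated libraries were the highest and irradiated libraries the lowest, with the combination reaching into the untreated range. INSIG2 rose with IFNγ by log2 0.19 ± 0.0695 (adjusted p = 0.0319) and fell with radiation by log2 0.37 ± 0.0756 (adjusted p = 3.62e-05).

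**Figure D3:**
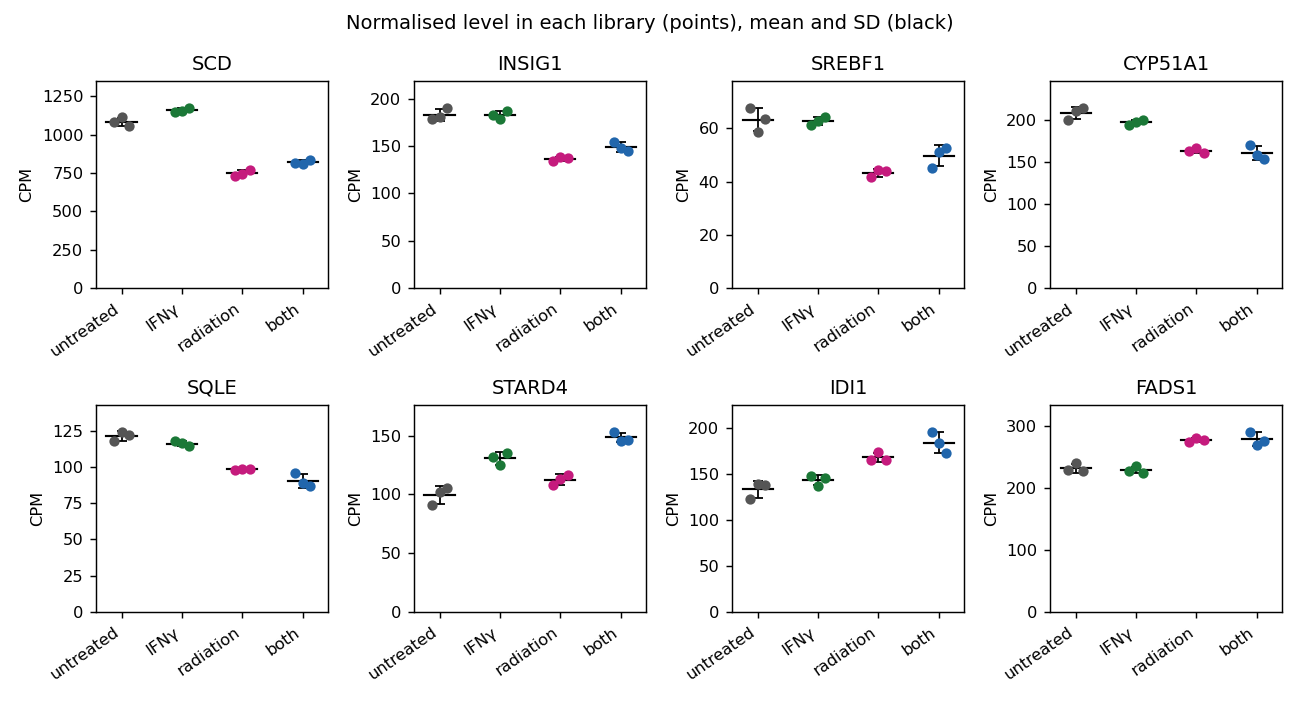
CPM of 8 of the genes in each library (points), with the mean and SD of the 3 libraries of each group (black); every axis starts at 0. For SCD, INSIG1, SREBF1, CYP51A1 and SQLE both irradiated groups lie below the unirradiated ones, for IDI1 and FADS1 above, and for STARD4 each treated group lies above untreated.

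The 7 mevalonate enzymes did not move as a block. Radiation raised MVD and IDI1, lowered HMGCS1 and left ACAT2, MVK, PMVK and FDPS uncalled, and IFNγ alone called 0 of the 7. These calls are 42.9% and 0% of the 7, against 56.1% and 29.1% of all genes. HMGCS1, the synthase that makes HMG-CoA, stood at 227, 237 and 234 CPM without treatment, 235, 244 and 235 with IFNγ, 196, 221 and 204 with radiation and 218, 212 and 206 with both. Both irradiated groups lay below both unirradiated groups, by log2 -0.17 ± 0.0375 with radiation (edgeR's adjusted p = 9.63e-05). MVD, which decarboxylates mevalonate diphosphate to isopentenyl diphosphate, read 24.5, 23.2 and 24.2 CPM, 22.2, 20.4 and 20.1, 27.5, 33.1 and 31.4 and 32.2, 26.1 and 25.8 in the same order of groups. IFNγ libraries were the lowest, and both irradiated groups lay above both others, at log2 0.36 ± 0.0812 with radiation (adjusted p = 0.000159) and -0.20 ± 0.0873 with IFNγ (adjusted p = 0.0819).

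IDI1, the isomerase that interconverts the isoprene units, read 123, 139 and 139 CPM without treatment, 148, 137 and 145 with IFNγ, 166, 174 and 166 with radiation and 196, 184 and 173 with both. Its rise was log2 0.33 ± 0.0453 with radiation (edgeR's adjusted p = 2.41e-08) and 0.46 ± 0.0447 with both (adjusted p = 2.69e-12), where every library lay above the untreated range. MVK, mevalonate kinase, was called in the combination only, at log2 0.21 ± 0.0787, with 26.3 ± 1.14 CPM against 22.8 ± 1.86 in untreated cells. The next kinase, PMVK, was the least steady of the 7 between untreated libraries, at 12.4, 10.1 and 7.82 CPM, and was 0.17 ± 0.124 with radiation. FDPS, which joins isoprene units into farnesyl diphosphate, ranged from 136 to 149.6 CPM over the 12 libraries, and 8 annotated pseudogenes are named after it, so reads of near-identical copies may be counted with it or lost. ACAT2, the thiolase of the first step, was at -0.07 ± 0.0557 with radiation and -0.06 ± 0.0555 with IFNγ. ACAT2 shares exonic bases with SOD2 on the opposite strand, whose counts were 606 to 698 in untreated and 1284 to 1606 in IFNγ-treated libraries. It also shares 397 with TCP1 on that strand, which had 4717 to 5291 counts in untreated and 3641 to 3764 in irradiated libraries. Without the counting's strand setting the reads in the shared bases cannot be told apart.

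Between squalene and lanosterol, the epoxidase SQLE fell with radiation while FDFT1 and LSS were not called. That is 33.3% of the 3 called, against 56.1% of all genes. SQLE, an oxygen-dependent step and another control point of the pathway, read 118, 124 and 122 CPM without treatment, 118, 116 and 114 with IFNγ, 98.1, 98.8 and 98.5 with radiation and 95.9, 88.8 and 86.5 with both. Every irradiated library lay below every unirradiated one, and every combination library below those given radiation alone. The changes were log2 -0.30 ± 0.0436 with radiation (edgeR's adjusted p = 3.39e-08), -0.43 ± 0.0439 with both (adjusted p = 1.7e-12) and -0.12 ± 0.0453 between those 2 groups (adjusted p = 0.0338). FDFT1, squalene synthase, was the only one of the 3 called with IFNγ, lower at 154 ± 0.706 CPM against 170.4 ± 3.94 (log2 -0.15 ± 0.0387, edgeR's adjusted p = 0.00267). SQLE stood at -0.06 ± 0.0425 with IFNγ, and on library totals SQLE and LSS were called lower as well. LSS, which closes the sterol rings, was -0.05 ± 0.0487 with radiation and -0.11 ± 0.0489 with IFNγ.

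Among the 8 enzymes from lanosterol to cholesterol, 3 fell (CYP51A1, EBP and DHCR7) and 3 rose (HSD17B7, SC5D and NSDHL) with radiation, and IFNγ lowered EBP, SC5D and DHCR7. These calls are 75% and 37.5% of the 8, against 56.1% and 29.1% of all genes. Of all genes 28.2% were lower and 27.9% higher with radiation, and 14.1% lower with IFNγ. CYP51A1, the demethylase that acts on lanosterol, read 201, 211 and 215 CPM without treatment, 195, 198 and 199.97 with IFNγ, 163, 167 and 162 with radiation and 170.5, 159 and 154 with both. All 6 irradiated libraries lay below the 6 others, with log2 -0.35 ± 0.0381 for radiation (edgeR's adjusted p = 1.65e-11) and -0.37 ± 0.038 for both (adjusted p = 1.26e-12). GENCODE places a second protein-coding gene model, AC000120.2, over 79.4% of its exonic bases on the same strand, and names 3 pseudogenes after it, so its counts are of uncertain assignment.

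EBP, a sterol isomerase, and DHCR7, a reductase at the end of the pathway, were lower with each agent and lowest with both. EBP read 39.9, 35.5 and 35.3 CPM without treatment, 30.3, 30.9 and 34.1 with IFNγ, 30.2, 34.8 and 31.1 with radiation and 29.2, 26.2 and 26.8 with both. The combination libraries lay below all 9 others, at log2 -0.43 ± 0.0725 (edgeR's adjusted p = 7.56e-07), against -0.22 ± 0.0706 for IFNγ and -0.20 ± 0.0708 for radiation. DHCR7 read 111, 107 and 111, 92.8, 98.8 and 92.1, 96.5, 99.6 and 102 and 86.3, 88.4 and 85.9 CPM in the same order of groups. It too was lowest in all 3 combination libraries, at log2 -0.34 ± 0.0444 (adjusted p = 2.76e-09), against -0.21 ± 0.044 for IFNγ (adjusted p = 0.000107) and -0.14 ± 0.0438 for radiation (adjusted p = 0.00458). The effect of IFNγ in irradiated minus that in unirradiated cells was -0.0092 ± 0.103 for EBP and 0.02 ± 0.063 for DHCR7, with 95% intervals from -0.21 to 0.19 and -0.10 to 0.14.

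HSD17B7, a sterol ketone reductase, read 14.4, 13.9 and 13.1 CPM without treatment, 11.6, 11.7 and 13.1 with IFNγ, 17.3, 16.3 and 17.6 with radiation and 15.01, 16.4 and 18.8 with both. The irradiated libraries were above all unirradiated ones, at log2 0.30 ± 0.0983 (edgeR's adjusted p = 0.00707), although 2 pseudogenes carry its name. SC5D, a sterol desaturase, was 37.7 ± 2.02 CPM in untreated and 42.95 ± 2.85 in irradiated cells (log2 0.19 ± 0.0682), and 33.1 ± 3.55 with IFNγ (log2 -0.19 ± 0.0714). It was thus called in opposite directions for the 2 agents, and stood at 0.04 ± 0.0689 with both. NSDHL, which removes a methyl group's carbon from the ring, was at log2 0.16 ± 0.0674 with radiation (adjusted p = 0.0445). MSMO1, its partner in demethylation, ranged from 176 to 202 CPM over the 12 libraries and was called in 0 comparisons. TM7SF2, a sterol reductase, had only 21 to 43 counts per library, and its log2 values of -0.38 ± 0.222 with IFNγ and -0.25 ± 0.218 with radiation did not pass the test.

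Of the 4 genes of fatty acid synthesis, radiation lowered FASN and ELOVL6, and ACLY and ACACA were not called. That is 50% of the 4 called, against 56.1% of all genes. ACLY, which supplies acetyl-CoA from citrate, was 459 ± 12.3 CPM in untreated and 476 ± 12.2 in irradiated cells, at log2 0.05 ± 0.0304. ACACA, which makes malonyl-CoA, was 175 ± 7.19 and 185 ± 3.34 CPM, at log2 0.08 ± 0.0372 with a 95% interval from 0.0059 to 0.15. FASN, fatty acid synthase, read 591, 556 and 542 CPM without treatment, 535, 539.7 and 533 with IFNγ, 496, 487 and 515 with radiation and 513, 519 and 542 with both. Its irradiated libraries lay below every unirradiated one, at log2 -0.17 ± 0.0314 (edgeR's adjusted p = 4.19e-06), and its combination libraries overlapped those of IFNγ alone. ELOVL6, which lengthens the palmitate that FASN makes, read 76.6, 76.98 and 79.9, 70.5, 74.8 and 73.04, 64.2, 62.4 and 61.9 and 60.3, 62.1 and 59.2 CPM in that order of groups. Both irradiated groups lay below both others, at log2 -0.31 ± 0.0497 with radiation (adjusted p = 3.96e-07) and -0.36 ± 0.0496 with both (adjusted p = 7.06e-09).

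The 3 desaturases split: SCD fell with radiation while FADS1 and FADS2 rose. All 3 were called, where 27.9% of all genes were higher and 28.2% lower. SCD, which puts the double bond into stearate and palmitate to make monounsaturated fatty acids, read 1083, 1111 and 1057 CPM without treatment, 1144, 1154 and 1172 with IFNγ, 731, 744 and 768 with radiation and 815, 806 and 834 with both. No 2 groups overlapped, in the order IFNγ, untreated, both, radiation. SCD fell by 31.02% with radiation (log2 -0.54 ± 0.028, edgeR's adjusted p = 6.58e-24) and by 24.5% with both (log2 -0.41 ± 0.0278, adjusted p = 4.89e-19). With IFNγ it rose by log2 0.09 ± 0.0275 in unirradiated cells (adjusted p = 0.00658), a call that library totals in place of TMM remove, and by 0.13 ± 0.0282 in irradiated cells (adjusted p = 0.00023). FADS1 and FADS2, neighbouring genes for the desaturases of polyunsaturated fatty acids, went the other way.

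FADS1 read 229, 240.1 and 227 CPM without treatment, 227, 235 and 225 with IFNγ, 274, 280.2 and 277 with radiation and 290.4, 269 and 276 with both. FADS2 read 148, 154 and 152, 143, 139.8 and 142, 167, 176 and 181 and 187, 175 and 182 CPM in that order. For both genes every irradiated library lay above every unirradiated one. The rises with radiation were log2 0.26 ± 0.035 for FADS1 (edgeR's adjusted p = 8.82e-09) and 0.20 ± 0.0387 for FADS2 (adjusted p = 9.53e-06). The 2 genes share 490 exonic bases on opposite strands, so a part of their counts may be common to both. FADS3, the third gene of the family and not of the set, went from 20.1, 14.9 and 17.1 CPM to 44.9, 46.4 and 47.2 with radiation, at log2 1.41 ± 0.0788 (adjusted p = 1.98e-23).

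STARD4 and LPIN1 were both higher with IFNγ and parted with radiation. STARD4, a carrier that moves sterols between membranes, read 90.7, 102 and 105 CPM without treatment, 132, 125 and 136 with IFNγ, 108, 113 and 117 with radiation and 153, 146 and 146 with both. No 2 groups overlapped, with untreated lowest and the combination highest. STARD4 rose by 31.8% with IFNγ (log2 0.40 ± 0.0464, edgeR's adjusted p = 3.66e-10), by 13.5% with radiation (log2 0.18 ± 0.0474, adjusted p = 0.000854) and by 49.7% with both (log2 0.58 ± 0.0456, adjusted p = 1.65e-16). LPIN1, a phosphatidate phosphatase that makes diacylglycerol, read 88.3, 90.5 and 87.9, 98.03, 99.8 and 103, 66.4, 74.6 and 69.5 and 74.2, 74.2 and 75.9 CPM in the same order of groups. IFNγ libraries were the highest and both irradiated groups the lowest, at log2 0.17 ± 0.0458 with IFNγ (adjusted p = 0.00228) and -0.34 ± 0.0486 with radiation (adjusted p = 2.2e-08).

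Each agent was also measured in the presence of the other, in libraries that the first measurement did not use. Radiation in IFNγ-treated cells called 20 of the 32 genes (62.5%, against 60.7% of all genes), 8 higher (25% against 30.3%) and 12 lower (37.5% against 30.4%). Of these, 19 had been called in the same direction by radiation alone, which is 95% of the 20 and 90.5% of the 21, and 0 in the opposite direction. Across the 32 genes the log2 fold changes of radiation without and with IFNγ had a Pearson r of 0.908, against 0.864 across all genes tested. The 32 points share the normalization of 1 fit and are not replicates. SCD was at -0.54 and -0.50, LPIN1 at -0.34 and -0.42, IDI1 at 0.33 and 0.36, and HSD17B7 at 0.30 and 0.47. NSDHL and FASN were called by radiation alone and not with IFNγ, at 0.14 ± 0.0683 and -0.03 ± 0.0313 there, and ACLY was called only with IFNγ, at 0.07 ± 0.0304. EBP was not called without IFNγ replicate 3 (-0.16) or combination replicate 2 (-0.18), nor with DESeq2. DHCR7 was not called without IFNγ replicate 2 (-0.09) or combination replicate 3 (-0.12), nor with scaling on library totals or DESeq2. SREBF2 was not called without IFNγ replicate 1 (-0.08), IFNγ replicate 3 (-0.09), combination replicate 1 (-0.06) or combination replicate 2 (-0.09), nor with scaling on library totals or DESeq2. ACLY was not called without IFNγ replicate 2 (0.07), combination replicate 1 (0.06) or combination replicate 2 (0.08), nor with every gene of at least 1 count tested. On library totals 12 genes were higher and 10 lower.

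IFNγ in irradiated cells called 9 of the 32 genes (28.1%, against 26.9% of all genes): STARD4, INSIG2, SREBF1, SCD, INSIG1 and IDI1 were higher and EBP, DHCR7 and SQLE lower. The 6 higher genes are 18.8% of the set, against 14.5% of all genes, and the 3 lower genes 9.38%, against 12.4%. It shared 5 with IFNγ alone (STARD4, INSIG2, SCD, EBP and DHCR7), which is 55.6% of the 9 and 62.5% of the 8. STARD4 changed by log2 0.40 ± 0.0449 in irradiated and 0.40 ± 0.0464 in unirradiated cells. Pearson r across the 32 genes was 0.689, against 0.900 across all genes tested. These r values are not like for like: with IFNγ alone the 32 changes ran from -0.38 to 0.40, and those of all genes from -2.76 to 13.9. SREBF1 was at 0.20 ± 0.0626 in irradiated cells (edgeR's adjusted p = 0.0107) and -0.02 ± 0.0562 in unirradiated cells, and INSIG1 at 0.13 ± 0.0397 (adjusted p = 0.0116) and -0.0032 ± 0.0374. The count fell to 4 without irradiated replicate 1, to 4 without combination replicate 2 and to 5 with DESeq2. On library totals 38% of all called genes were higher, against 53.9% with TMM, and the set had 3 higher and 8 lower genes. IDI1 was not called without irradiated replicate 1 (0.12), irradiated replicate 3 (0.12), combination replicate 1 (0.08) or combination replicate 2 (0.13), nor with scaling on library totals or DESeq2. SQLE was not called without irradiated replicate 1 (-0.13), irradiated replicate 2 (-0.12), irradiated replicate 3 (-0.12), combination replicate 2 (-0.11) or combination replicate 3 (-0.09), nor with DESeq2 or every gene of at least 1 count tested. EBP was not called without irradiated replicate 2 (-0.16), combination replicate 2 (-0.20) or combination replicate 3 (-0.21), nor with DESeq2. SREBF1 was not called without irradiated replicate 1 (0.18), combination replicate 2 (0.18) or combination replicate 3 (0.16). INSIG1 was not called without irradiated replicate 1 (0.11) or combination replicate 1 (0.10), nor with scaling on library totals. INSIG2 was not called without irradiated replicate 1 (0.16), irradiated replicate 2 (0.19), combination replicate 2 (0.21) or combination replicate 3 (0.14), nor with scaling on library totals, RLE size factors, DESeq2, limma-voom or every gene of at least 1 count tested.

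**Figure D4:**
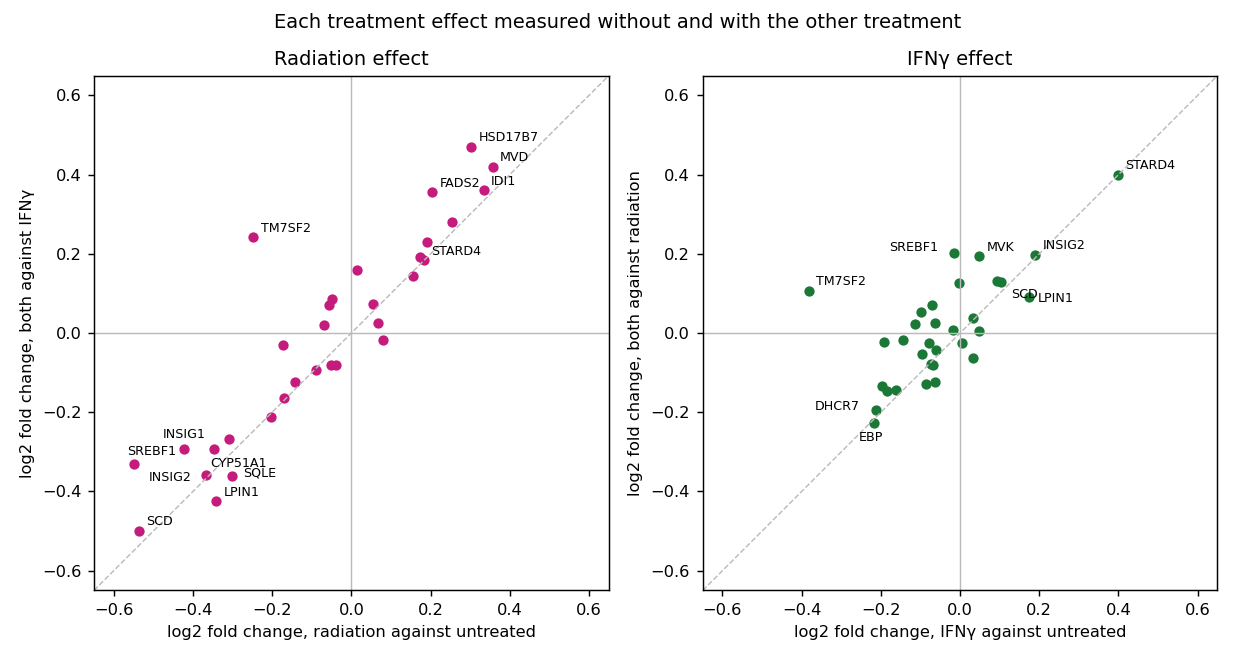
Log2 fold change of each of the 32 genes for radiation (left) without IFNγ on the x axis and with IFNγ on the y axis, and for IFNγ (right) without and with radiation; the dashed line marks equal effects. On the left SCD (-0.54 and -0.50) lies lowest on the y axis, SREBF1 (-0.55 and -0.33) lies farthest to the left, and HSD17B7 (0.30 and 0.47) lies highest; on the right STARD4 lies at 0.40 on both axes and TM7SF2, at 21 to 43 counts per library, farthest from the line.

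The interaction term is the log2 IFNγ effect with radiation minus the same effect without radiation. It was called for 0 of the 32 genes by edgeR, by DESeq2 and by limma-voom, against 2.38% of all genes by edgeR (289 genes). At an unadjusted p under 0.05 there were 5 genes with each tool. By edgeR that is 15.6% of the set, a share near the 14.7% of all genes. By edgeR these 5 were SREBF1 at 0.22 ± 0.0841, INSIG1 at 0.13 ± 0.0546, FASN at 0.14 ± 0.0444, FADS2 at 0.15 ± 0.0548 and FDFT1 at 0.13 ± 0.0548. FASN had the lowest adjusted p of the set, 0.0713, and was called on library totals (0.16) and without untreated replicate 3 (0.17). The terms ran from -0.10 to 0.49, and their 95% intervals from -0.33 at the lowest to 1.10 at the highest, the latter for TM7SF2. For STARD4 the interval was -0.13 to 0.13, for SCD -0.04 to 0.11 and for IDI1 -0.10 to 0.15. The differences seen between the 2 settings of IFNγ, such as those of SREBF1 and INSIG1, thus did not pass the test of the difference itself.

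LBR, a sterol reductase of the nuclear envelope outside the set, fell by 0.39 on the log2 scale with radiation in edgeR's fit. Genes that process SREBP or sense sterols had 2 higher and 5 lower of 10 tested after radiation (median -0.12), against 27.9% higher and 28.2% lower of all genes, and 1 higher and 4 lower of 10 tested with IFNγ (median -0.10), against 15% and 14.1%. The largest changes of this list with radiation were falls, of RNF139 at -0.40 ± 0.071 and PAQR3 at -0.39 ± 0.0517. TMEM97, a sterol-binding membrane protein, rose with radiation at 0.36 ± 0.0626 and was lower with IFNγ at -0.34 ± 0.0683.

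Of the genes for sterol uptake, transport and storage, radiation had 7 higher and 3 lower of 14 tested, with a median of 0.18, and both agents 10 higher and 2 lower of 14 tested, with a median of 0.20. These calls are 71.4% and 85.7% of the list, against 56.1% and 62.1% of all genes. Of all genes 27.9% were higher and 28.2% lower with radiation, and 30.9% higher and 31.2% lower with both. The receptors divided. SCARB1, the HDL receptor, went from 18.2, 17.8 and 21.3 CPM to 34.1, 33.1 and 32.95 with radiation, at log2 0.81 ± 0.0804 (edgeR's adjusted p = 4.55e-13). VLDLR and LRP8, 2 relatives of the LDL receptor, fell by 0.71 and 0.56 on the log2 scale. ABCA1, the exporter of cholesterol and the only called one of 5 LXR-linked genes tested after radiation, read 50.2, 56.1 and 54.3 CPM without treatment, 38.9, 39.7 and 43.04 with IFNγ, 98.8, 88.97 and 95.1 with radiation and 75.7, 73.2 and 77.3 with both. No 2 of these groups overlapped: IFNγ was lowest, at -0.40 ± 0.0609, and radiation highest, at 0.82 ± 0.0533. Of the same 5 LXR-linked genes IFNγ called 4 (80%, against 29.1% of all genes), with MYLIP, LPCAT3 and NR1H2 higher, at 0.38 ± 0.118, 0.38 ± 0.143 and 0.14 ± 0.0535, and ABCA1 lower. LPCAT3 and NR1H2 lay close to the threshold, at edgeR's adjusted p of 0.0386 and 0.0412. LPCAT3 read 5.16, 8.47 and 7.31 CPM without treatment and 7.72, 9.15 and 10.3 with IFNγ, so these groups overlapped. Of the 12 genes of this list in the count table only 5 were tested. NPC2, which carries cholesterol out of lysosomes, rose with IFNγ at 0.32 ± 0.0533 and with both at 0.73 ± 0.0511.

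Fatty acid supply, elongation and activation genes outside the set had 5 higher and 7 lower of 23 tested with radiation (median -0.07) and 3 higher and 4 lower of 23 tested with IFNγ (median -0.07). These calls are 52.2% and 30.4% of the list, near the 56.1% and 29.1% of all genes. ACSL5, which activates long-chain fatty acids, read 0.75, 0.565 and 0.711 CPM without treatment, 15.7, 14.8 and 15.8 with IFNγ, 1.71, 1.10 and 1.17 with radiation and 22.8, 24.00 and 26.1 with both. The 6 libraries given IFNγ, alone or with radiation, lay far above the 6 others, at log2 4.49 ± 0.306 with IFNγ (edgeR's adjusted p = 1.57e-27). ELOVL2, an elongase of polyunsaturated fatty acids, fell with radiation at -0.93 ± 0.146, and HACD2, a dehydratase of the elongation cycle, at -0.55 ± 0.0462. Beside these, no gene of the 32 moved as far as FADS3, ELOVL2 or SCARB1 with radiation, and the largest changes within the set were -0.55 ± 0.0605 for SREBF1 and -0.54 ± 0.028 for SCD.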

How the data were processed

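The table the authors deposited holds unnormalized whole-number counts per gene for 12 libraries. TopHat2 2.0.13 and hg19 are named in the submitters' processing notes, beside FastQC 0.11.3 and the Cufflinks tools (Cuffdiff 2.2.1). How reads were counted, with which strand setting and annotation, is not given in the sources used here. Per the labels' protocols, ribosomal RNA was removed and stranded libraries were made, while the series' design text names an mRNA protocol. Groups came from sample titles. Counts were tested with edgeR 4.0.16 in R 4.3.3 (filterByExpr, TMM, 1 robust quasi-likelihood fit of all libraries, Benjamini-Hochberg adjustment). The genes left out held 0.0678% of counts, and the common biological coefficient of variation was 2.71%. SE are Wald errors, and 95% intervals are the estimate ± 1.96 SE. DESeq2 1.42.0, limma 3.58.1 (voom), other scalings, filters and fits, and leaving out each library were alternatives. The script was tested on simulated data. Replicates were separate libraries, with a chi-square per degree of freedom of 1.14 to 2.75 between pairs. The genes and lists were chosen with earlier results of these data known. All 32 genes are named, and of each other list at most the 4 called genes with the largest changes in a comparison, some of which are not reported here. Promoter windows came from RefSeq, and overlaps from GENCODE release 29.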

Additional observations from a re-analysis of the deposited data

How the results depend on the processing

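For the 32 genes, 3040 log2 fold changes were recomputed under alternative settings. Of these, 2886 kept their side of the threshold, 104 lost a call, 50 gained one, and 0 changed direction with a call. In the IFNγ comparison the count of 8 became 16 on library totals and 5 with DESeq2, and ran from 5 to 8 with 1 library left out, with 5 without IFNγ replicate 1. For IFNγ in irradiated cells the count of 9 became 5 with DESeq2 and ran from 4 to 8 with 1 library left out. The interaction count of 0 became 1 (FASN) on library totals, and was 0 or 1 with 1 library left out. Over all genes the 289 interaction calls became 136 with DESeq2 and ran from 161 (without irradiated replicate 2) to 332. The cause of these shifts was not tested. The share of interaction calls that were higher went from 58.1% with TMM to 69.4% on library totals. Replicate numbers did not pair the libraries: in 18 pairs the correlation of deviations ran from -0.056 to 0.081. A fit with the replicate number as a block (replicate block) called 8, 21, 21, 20, 9 and 0 genes in the 6 comparisons, the counts without it. With 3 libraries a group and a median of 324 counts per tested gene and library, small differences of genes such as TM7SF2 (21 to 43 counts) were not detectable at this depth.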

Other observations

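Genes that draw on the same precursors or consume the products were also measured. Fatty acid oxidation had 8 higher and 0 lower of 17 tested after radiation, with a median log2 fold change of 0.13, where all genes had 0.0061. These calls are 47.1% of the list, against 56.1% of all genes called (27.9% higher and 28.2% lower). PPARA, a nuclear receptor that drives oxidation genes, read 7.79, 8.19 and 9.64 CPM without treatment and 14.8, 14.96 and 16.6 with radiation, at log2 0.86 ± 0.115. Every irradiated library lay above every untreated one. SLC25A20, the carnitine carrier, was at 0.66 ± 0.142 and ACADVL, a mitochondrial dehydrogenase, at 0.44 ± 0.0375. IFNγ had 2 higher and 2 lower of 17 tested (23.5%, against 29.1% of all genes), and PPARD went from 96.7, 95.3 and 95.6 CPM to 62.8, 61.7 and 63.4, at -0.61 ± 0.0481. All values are from edgeR's quasi-likelihood fit.

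The isoprenoid branches, which use farnesyl diphosphate outside sterol synthesis, had 2 higher and 7 lower of 14 tested with radiation (median -0.23) and 2 higher and 0 lower of 14 tested with IFNγ (median -0.0079). These calls are 64.3% and 14.3% of the list, against 56.1% and 29.1% of all genes. Of all genes 27.9% were higher and 28.2% lower with radiation, and 15% higher and 14.1% lower with IFNγ. COQ2, of coenzyme Q synthesis, was at -0.55 ± 0.0777 with radiation and 0.24 ± 0.0689 with IFNγ. RABGGTB, a prenyltransferase subunit, was at -0.45 ± 0.0391 and ICMT, a methyltransferase of prenylated proteins, at -0.45 ± 0.0389 with radiation. Glycerolipid synthesis had 5 higher and 4 lower of 17 tested with radiation and 4 higher and 5 lower of 17 tested with IFNγ, in each case 52.9% of the list, against 56.1% and 29.1% of all genes. GPAT3, an acyltransferase of the first step, went from 149.7, 143 and 155 to 102, 102 and 95.7 CPM with radiation, at -0.58 ± 0.0443. AGPAT3, of the second step, went from 120.1, 117 and 112 to 158, 149 and 159 CPM with IFNγ, at 0.41 ± 0.0412, and PCYT1A, of phosphatidylcholine synthesis, was at 0.42 ± 0.041. PCYT2 and DGAT1 were lower with IFNγ, at -0.29 ± 0.0761 and -0.28 ± 0.102. With radiation PCYT2 was higher, at 0.42 ± 0.0694.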
